A study of Mus musculus with 16 samples.

Results

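Unexposed mouse epidermis in which C/EBPβ had been deleted was compared with unexposed control epidermis, gene by gene, in bulk RNA-seq counts. All 8 unexposed libraries of a series of 16 were used, 4 of knockout and 4 of control epidermis, and 17741 of the 49585 genes in the count table had enough reads to be tested. All mice were SKH-1, a hairless laboratory stock, 8 to 12 weeks old, and the epidermis was separated from the skin by heat. The controls are labelled K5Cre, that is, they carry the Cre recombinase driven by the keratin 5 promoter, which is active in basal keratinocytes. The knockouts are labelled C/EBPB -/-, and the series' design text calls the deletion epidermis-specific. Neither group received UVB. The other 8 libraries, 4 of each genotype taken 6 hours after 100 mJ/cm2 UVB, shared the fit, and so its filter, scaling and estimate of spread, and were also used to look at the same genes a second time. Replicates are separate samples by their labels, which do not say whether each came from its own animal, so the p-values measure the spread between samples.

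C/EBPβ is a basic leucine zipper transcription factor that binds DNA as a dimer, with itself or with other members of the C/EBP family. It is known for driving genes of liver, fat and myeloid cells, and in the epidermis it is found in suprabasal keratinocytes, where it takes part in the exit from the cell cycle and the start of differentiation. The epidermis renews itself from basal cells, which express keratins 5 and 14, through spinous cells to the cornified layer, whose envelope is built from loricrin, small proline-rich proteins and late cornified envelope proteins. The title of the series names the type I interferon response and p53 as its subjects, so the genes of both pathways were followed as lists.

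Levels are given as CPM, read counts relative to the library total, scaled for library composition, and do not correct for transcript length, so they compare one gene between libraries and not one gene with another. A fold change is the fitted knockout level over the control level, with its log2 value ± standard error (SE), and a gene was said to have risen or fallen at an adjusted p under 0.05. The unexposed libraries held 36019949 to 53255160 counts. At equal depth, 18453 to 19943 genes were detected in the controls and 18801 to 21183 in the knockouts. Knockout library 4 stood apart: mitochondrial transcripts took 10.2% of its counts, against 4.33% to 5.67% in the other 3 knockout libraries, and Gm42418, a transcript that overlaps ribosomal RNA sequence, took 7.52%, near the 7.93% of control library 2. Its log2 levels correlated at 0.944 to 0.949 with the other knockout libraries, which reached 0.962 to 0.971 among themselves. Xist was above 100 CPM in libraries 1 and 2 of either group and far lower in libraries 3 and 4, so each group held 2 libraries of each kind; sex was not a term of the fit and its part in the results was not tested.

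Cebpb itself was counted at 186, 160.1, 164 and 155 CPM in the control libraries and at 0.702, 0.177, 0.543 and 0.875 CPM in the knockout libraries. Every knockout library was below 1 CPM, and the groups were far apart. The fitted log2 fold change was -8.22 ± 0.49, 298-fold lower, with an adjusted p of 9.9e-07. Of the other C/EBP family members, Cebpa, Cebpd, Cebpg and Ddit3 were tested and none passed the threshold with edgeR. Their log2 fold changes lay between 0.06 for Cebpa, which shares the binding sequence of C/EBPβ, and 0.35 for Cebpg (adjusted p = 0.14 with edgeR). DESeq2 called 1 of them, Cebpg, higher.

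The Cebpb gene lies at chr2:167688915-167690418 (GRCm38) and its 5' end overlaps Tmem189, which encodes the plasmanylethanolamine desaturase and is transcribed from the opposite strand at chr2:167642608-167689822. Tmem189 was at 15.3, 16.9, 17.0 and 19.5 CPM in controls and at 1.42, 2.60, 1.47 and 0.687 CPM in knockouts. It fell 11-fold (log2 -3.46 ± 0.32, adjusted p = 2.3e-06). Because both genes share sequence and no source used here gives the strand setting of the counting, reads from the overlap cannot be told apart between them. The lincRNA 1200007C13Rik, at chr2:167827693-167833646, rose from 1.20 ± 0.314 to 4.05 ± 0.534 CPM (SD, n = 4; adjusted p = 0.0012). With edgeR these 3 were the calls among 26 tested genes within 1 Mb of Cebpb; the flanking A530013C23Rik and Ptpn1 had log2 fold changes of 0.23 and 0.07 and did not pass.

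Across all genes, 373 passed the threshold, which is 2.10% of those tested; 171 rose (0.964%) and 202 fell (1.14%). The rises were larger than the falls and started from lower levels. Their median fold was 2.53, from a median of 8.72 CPM in controls, and 118 of them were at least 2-fold. The median control level of all tested genes was 7.7 CPM, near that of the risen genes. The median fall was 1.77-fold, from 79.9 CPM, and 76 falls were at least 2-fold. Genes above 100 CPM in controls made up 42.6% of the genes that fell, 4.09% of those that rose and 9.90% of all genes tested. In 156 of the 171 risen genes every knockout library was above every control, which was so for 4.64% of all tested genes, and in 196 of the 202 fallen genes every one was below (5.36%). The median log2 fold change of all tested genes was 0.002. Knockout library 1 was the highest of the knockouts in 98 of the 171 risen genes, and library 4 the lowest in 67. The number of calls rested on the libraries: it was 134, 144 and 225 without control libraries 4, 3 and 2, 148 and 168 without knockout libraries 1 and 2, and 435 without knockout library 4. DESeq2 called 795 genes on the same counts, and edgeR on the 8 unexposed libraries alone 554, of which 313 were among the 373. With upper-quartile scaling 180 genes rose and 136 fell.

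**Figure D1:**
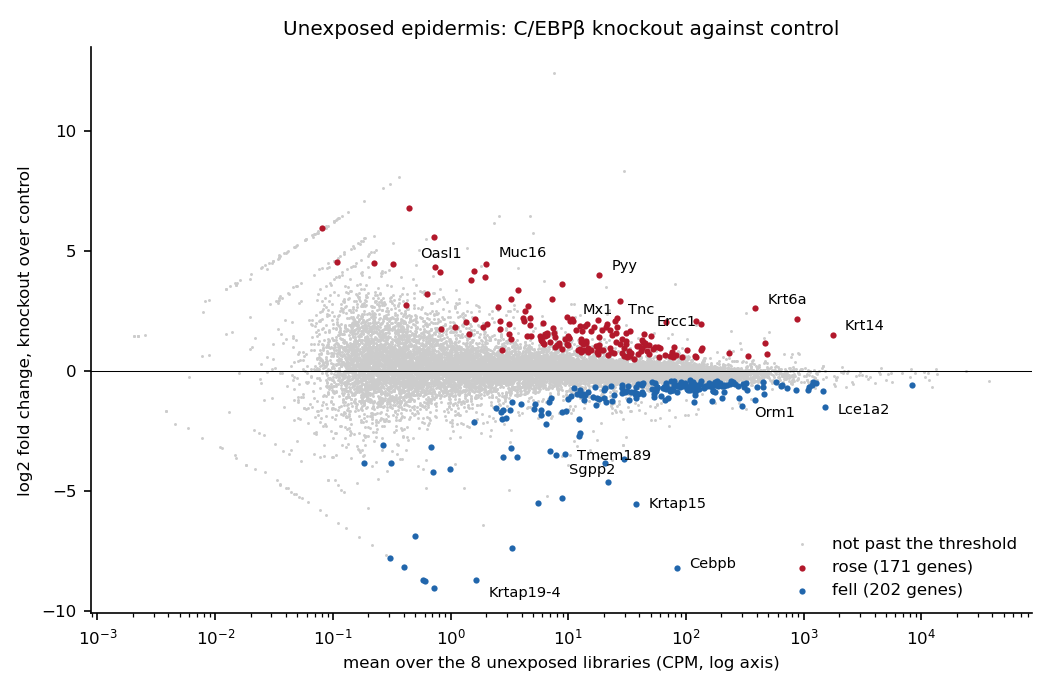
Each point is 1 tested gene, with its mean over the 8 unexposed libraries on a log axis (CPM) and its log2 fold change, knockout over control. Red points rose (171) and blue points fell (202); the falls are many small steps at high levels, and Cebpb is at -8.22.

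Interferon-stimulated genes were prominent among the rises. Type I interferons signal through JAK kinases to a complex of STAT proteins and IRF9, which binds the interferon-stimulated response element and switches on antiviral genes. Of 82 tested genes in 5 lists of such targets (antiviral effectors, oligoadenylate synthetases, the ISG15 system, interferon-induced PARPs, guanylate-binding and IRG proteins), 25 rose and none fell, against 0.964% of all genes that rose. They are 14.6% of the 171 risen genes. The median log2 fold change of the 82 was 1.29, and 78 of them were above 0. In 46 every knockout library was above every control, which was so for 4.64% of all tested genes. The count of 25 rises was 12, 14, 12 and 9 without control libraries 1 to 4, and 11 and 15 without knockout libraries 1 and 2. It was 42 in a fit of the 8 unexposed libraries alone and 39 with DESeq2. The promoters of the best-supported risen genes among them that carry the response element are shown next, so that the matched letters can be seen in place. They are RefSeq windows (GRCm38.p6), written 5′ to 3′ on the gene's strand, that end at the base before the transcription start, with capitals marking GAAANNGAAA on either strand.

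Slfn9, chr11:82991831-82992080, minus strand, 1 match 45 bases before the start:
Slfn9: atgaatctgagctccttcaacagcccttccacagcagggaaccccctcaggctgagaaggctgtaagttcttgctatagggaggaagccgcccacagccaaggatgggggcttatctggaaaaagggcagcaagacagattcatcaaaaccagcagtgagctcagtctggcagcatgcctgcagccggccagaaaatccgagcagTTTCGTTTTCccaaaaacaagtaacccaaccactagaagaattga
Oas1a, chr5:120907526-120907775, minus strand, 2 overlapping matches from 20 bases before the start:
Oas1a: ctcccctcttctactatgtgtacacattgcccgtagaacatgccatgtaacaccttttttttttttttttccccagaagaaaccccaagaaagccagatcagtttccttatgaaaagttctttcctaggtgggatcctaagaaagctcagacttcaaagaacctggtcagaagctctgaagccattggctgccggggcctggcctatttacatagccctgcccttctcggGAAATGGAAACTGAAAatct
Oas3, chr5:120777660-120777909, minus strand, 1 match 75 bases before the start:
Oas3: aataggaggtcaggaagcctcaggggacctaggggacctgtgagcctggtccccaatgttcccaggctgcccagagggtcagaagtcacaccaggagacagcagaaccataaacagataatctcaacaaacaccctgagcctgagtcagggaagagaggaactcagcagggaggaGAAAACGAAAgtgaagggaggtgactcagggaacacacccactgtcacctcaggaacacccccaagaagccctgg
Ifitm3 carries its 2 matches just after the start, at chr7:141010716-141010742 on the minus strand, and only the stretch that holds them is given:
Ifitm3: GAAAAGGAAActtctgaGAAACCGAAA

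Among the antiviral effectors, 14 of 50 rose and none fell. Mx1, a dynamin-like GTPase that blocks viral replication, was at 4.19, 3.70, 4.97 and 3.09 CPM in controls and at 22.7, 15, 17.2 and 12.5 CPM in knockouts. The groups did not overlap, and the rise was 4.23-fold (log2 2.08 ± 0.31, adjusted p = 0.00071). Ifitm3, a membrane protein that hinders viral entry, was at 8.77 to 12.4 CPM in controls and at 52.7, 31.2, 35.4 and 19.3 CPM in knockouts (3.25-fold, adjusted p = 0.0052). Xaf1, a pro-apoptotic interferon target, rose 3.81-fold, Lgals3bp, a secreted galectin-binding glycoprotein, 3.43-fold, Slfn9, of the Schlafen family, 2.62-fold and Pml, the scaffold of nuclear bodies, 2.08-fold (adjusted p = 0.0049 to 0.0064). Several classical members missed the threshold with wide spread; like other genes given below that did not pass, they were picked out after their values were seen. Ifit1 was at 4.89 to 9.71 CPM in controls and 27.2 to 55.2 CPM in knockouts (log2 2.54 ± 0.63, adjusted p = 0.061), and Ifit3 at 0.00 to 0.364 and 1.53 to 7.15 CPM (log2 4.36 ± 1.24, adjusted p = 0.094). Rsad2 was at 3.77 to 15.4 and 13.8 to 43.9 CPM, and the groups overlapped (adjusted p = 0.46).

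Of the 9 tested oligoadenylate synthetase genes, 6 rose and none fell, and the median log2 fold change was 1.94. These enzymes make short 2'-5'-linked oligoadenylates in the presence of double-stranded RNA. Oas1a was at 9.37, 10.5, 9.07 and 6.63 CPM in controls and 40.1, 21.8, 47.6 and 26.9 CPM in knockouts (3.84-fold, adjusted p = 0.012). Oas3 rose 4.21-fold (adjusted p = 0.013) and Oas1g 3.49-fold (adjusted p = 0.020). Oas1a and Oas1g are close paralogs, so reads could be divided differently between them. Oasl2 rose 7.42-fold, from 2.35 to 8.25 CPM in controls to 34.8 to 65.2 CPM in knockouts (adjusted p = 0.046). Oasl1 was at 0.141 to 0.182 CPM in controls and at 6.90, 2.94, 1.33 and 0.812 CPM in knockouts; it rose 17.9-fold (adjusted p = 0.030), and knockout library 1 carried more than the other 3 together. Oas1a did not pass without control library 3 or 4, Oasl1 passed only without knockout library 3 or 4, and Oasl2 passed in none of the 8 fits that left out 1 library (adjusted p up to 0.061, 0.12 and 0.14). Without knockout library 1 the log2 fold change of Oasl1 was 3.34 in place of 4.16. Oas3 did not pass without control library 4, and Oas1g did not in 5 of the 8 fits. Mx1, Ifitm3, Xaf1, Lgals3bp, Slfn9, Pml and Dtx3l passed in all 8.

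Of the 7 interferon-induced PARP genes, 3 rose, and they are neighbours on chromosome 16: Dtx3l, a ubiquitin ligase, 2.30-fold (adjusted p = 0.0049), its partner Parp9 2.53-fold (adjusted p = 0.024) and Parp14, a mono-ADP-ribosyltransferase, 2.78-fold (adjusted p = 0.047). Parp9 and Dtx3l overlap in the annotation. In the ISG15 list, 1 of 6 genes rose: Usp18, the protease that removes ISG15 and dampens interferon receptor signalling, went from 4.57 to 7.34 CPM in controls to 15.5 to 26.8 CPM in knockouts (3.65-fold, adjusted p = 0.023). Isg15 itself was at 22.9, 41.3, 58.9 and 36.1 CPM in controls and 107, 64.6, 204 and 78.1 CPM in knockouts; the groups did not overlap but the adjusted p was 0.23. Gbp7 was the 1 of 10 guanylate-binding and IRG genes that rose (2.92-fold, adjusted p = 0.043). Dtx3l passed in all 8 fits that left out 1 library, while Usp18, Parp9 and Gbp7 were lost in 5 of them and Parp14 in 7 (adjusted p up to 0.17).

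Fewer genes upstream of these targets passed (0.964% of all genes rose). In the IRF and STAT list 8 of 10 tested genes had positive values, with a median log2 fold change of 0.35. Its summed level was 500 to 574 CPM in controls and 584 to 721 CPM in knockouts. Among nucleic acid sensors 13 of 16 were positive, with a median of 0.68 and sums of 250 to 294 and 337 to 439 CPM. Among receptor, JAK kinase and SOCS genes 7 of 13 were positive, with a median of 0.02. Of 10 tested IRF and STAT genes 2 rose, both parts of the complex that binds the response element: Stat2 from 53.3 ± 8.87 to 106 ± 18.9 CPM (1.98-fold, adjusted p = 0.0079) and Irf9 from 64.6 ± 6.16 to 100.3 ± 15.5 CPM (1.55-fold, adjusted p = 0.049). Stat2 passed without any 1 library, but Irf9 passed only without knockout library 4 (adjusted p up to 0.16). Of 13 receptor, JAK kinase and SOCS genes only Usp18, listed there too, rose. Of 16 nucleic acid sensors 2 rose, Cgas, the cytosolic DNA sensor that makes cyclic GMP-AMP, from 12.9, 15.3, 13 and 13.2 CPM to 24.3, 22.8, 24.2 and 26.8 CPM (1.80-fold, adjusted p = 0.0032), and Ifi207, of the PYHIN family, 4.12-fold (adjusted p = 0.039). Cgas passed without any 1 library and Ifi207 only without knockout library 4. In the MHC class I list, with 21 tested genes, Psmb8, an immunoproteasome subunit, rose 1.64-fold and H2-T23, a nonclassical class I gene, fell 1.56-fold (adjusted p = 0.015 and 0.025), and these calls were lost in 4 and 6 of the 8 fits that left out 1 library. None of 19 interferon genes had enough reads to be tested. Ifnb1 had 20 counts in knockout library 1 and 0 in the other 7 libraries, Ifnl3 had 15 counts in knockouts and Ifna4 had 8, both with 0 in controls, and Ifng had 15 counts in controls and 0 in knockouts; Ifnk and Ifne had none in any library.

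Genes of wounded or hyperproliferative epidermis also rose. In the list of stress keratins and alarm genes 6 of 21 rose and none fell, where 0.964% of all tested genes rose. The median log2 fold change of the list was 1.09. Tnc, the matrix protein tenascin C that is laid down in healing skin, was at 9.61, 12.0, 8.77 and 7.63 CPM in controls and 51.2, 32.4, 39.5 and 38.4 CPM in knockouts. The rise was 4.25-fold (log2 2.09 ± 0.21, adjusted p = 8.5e-06), and it passed without any 1 library. Krt6a, a keratin induced by wounding, was at 207, 111, 47.6 and 69.6 CPM in controls and at 1226, 677, 458 and 276 CPM in knockouts (6.05-fold, adjusted p = 0.024). Its partner Krt16 was at 669.7, 255, 175 and 204 CPM and at 2511, 1339, 1197 and 704 CPM (4.41-fold, adjusted p = 0.038). The spread was wide in both genes: control library 1 was the highest control and knockout library 4 the lowest knockout, and Krt6a did not pass without control library 2, 3 or 4 or knockout library 1 or 2 (adjusted p up to 0.097). Krt16 passed only without control library 1, where its log2 fold change was 2.77, or knockout library 4. Inhba, an activin subunit made in wounds, rose 6.69-fold, and Vegfa and Fosl1 make up the 6. Inhba did not pass without control library 1 or 4 or knockout library 1 or 2, and Fosl1 not without control library 1 or 4 or knockout library 1. Krt17 was at 478 to 882 CPM in controls and 705 to 1500.3 CPM in knockouts and did not pass (adjusted p = 0.092). In the stress list 2 genes rose without control library 4 and 2 without knockout library 1, 3 without knockout library 2, and 3 in the fit of the 8 unexposed libraries alone.

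Lists of growth and early response genes were followed as well. The share that rose was 23.1% in the vascular list, 11.1% among AP-1 and early genes and 6.25% in the EGF receptor list. In none of these lists did a gene fall, and 0.964% of all tested genes rose. Vegfa, the vascular growth factor, was at 41.3, 27.3, 23.8 and 15.7 CPM in controls and 103, 85.8, 62.4 and 47.1 CPM in knockouts (2.76-fold, adjusted p = 0.0028). Its receptor Flt1 rose 2.43-fold (adjusted p = 0.018), and the endothelial marker Pecam1 was at 0.576 to 1.89 CPM in controls and 0.796 to 2.72 CPM in knockouts. Adm, the vasodilator adrenomedullin, rose 4.20-fold (adjusted p = 0.029), which made 3 of 13 in the vascular list. In that list 11 of 13 genes had positive values, with a median log2 fold change of 0.51. Its summed level was 108 to 127 CPM in controls and 192 to 275 CPM in knockouts. Positive values were fewer in the EGF receptor list, 5 of 16, and in the list of AP-1 and early genes, 13 of 27. Hbegf, an EGF receptor ligand, rose 2.21-fold (adjusted p = 0.014), 1 of 16 in its list, and of 27 AP-1 and early genes Atf3 (4.41-fold), Fosl1 (2.55-fold) and Nr4a1 (3.85-fold) rose (adjusted p = 0.0079 to 0.036). Knockout library 1 was the highest in each, at 35.3 CPM for Atf3 against 8.90 to 13.5 in the others, and without it the log2 fold change of Atf3 was 1.55 in place of 2.14. Vegfa and Atf3 passed without any 1 library; the other calls were lost in 2 (Hbegf), 3 (Flt1), 4 (Adm) and 5 (Nr4a1) of those 8 fits.

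Cytokine genes passed in both directions. Il33, an alarmin of the IL-1 family, was at 11, 10.1, 8.52 and 7.86 CPM in controls and 73.4, 40.3, 34.9 and 21.2 CPM in knockouts (4.54-fold, adjusted p = 0.039). 3 neighbouring members on chromosome 2 fell instead: Il1f10 1.94-fold, the IL-36 receptor antagonist Il1f5 1.5-fold, from 1412 ± 61.3 to 940.4 ± 117 CPM, and the IL-36 agonist Il1f6 1.54-fold (adjusted p = 0.015 to 0.036). The list had 16 tested genes, of which 6 had positive values, with a median log2 fold change of -0.33. Its summed level was 3157 to 3499 CPM in controls and 2145 to 2698 CPM in knockouts. Il33 did not pass without any 1 library other than knockout library 4, nor Il1f5 other than knockout library 3, and Il1f10 and Il1f6 were lost in 4 and 6 of the 8 fits; upper-quartile scaling lost Il1f5 and Il1f6. Ccl27a, the keratinocyte chemokine that attracts skin-homing T cells, rose 4.34-fold, from 4.49 to 8.77 CPM to 13.4 to 42.6 CPM (adjusted p = 0.0011), the 1 call among 23 chemokines. Il24 was at 0.187 to 1.49 CPM in knockouts, and its 5 control counts were all in library 4 (log2 fold change 4.44, adjusted p = 0.0064). The log2 fold change was 3.58 without knockout library 1, and without control library 4 the controls held no count, so no fold is given; the call was lost with limma voom.

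Among 39 tested p53 family members and targets, 1 rose and 1 fell, with a median log2 fold change of -0.08. Gadd45a, a stress-response gene that C/EBP proteins also bind, was at 73.1, 57.1, 87.0 and 75.9 CPM in controls and 25.7, 27.9, 40.4 and 42.4 CPM in knockouts (2.15-fold lower, adjusted p = 0.0011). Ak1, adenylate kinase 1, rose 2.78-fold (adjusted p = 0.010). Trp53 itself was at 23.1 ± 2.77 and 21.1 ± 4.77 CPM, Cdkn1a at 327 ± 16.3 and 309 ± 69.9 CPM and Mdm2 at 83.4 ± 4.95 and 82.6 ± 11.7 CPM, with adjusted p of 0.94, 0.96 and 0.99. None of 26 apoptosis genes of the BCL2 list passed.

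Ercc1, the partner of XPF in the nuclease that cuts 5' of DNA lesions in nucleotide excision repair, had one of the tightest separations. It was at 25.3, 21.4, 23.2 and 21.9 CPM in controls and at 75.3, 63.1, 63.8 and 58.9 CPM in knockouts, 2.84-fold higher (log2 1.51 ± 0.13, adjusted p = 9.9e-07). It was the only one of 32 tested excision repair genes to pass, and the only one of 17 tested genes within 150 kb of its locus at chr7:19344778-19356524. The call held without any 1 of the 8 unexposed libraries.

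2 families of cornified envelope genes in the epidermal differentiation complex on chromosome 3 moved in opposite directions. Of 14 tested small proline-rich genes 5 rose and none fell, where 0.964% of all tested genes rose. Their median log2 fold change was 1.93. Of 14 tested late cornified envelope genes of group 1, 6 fell and none rose, where 1.14% of all tested genes fell. Their median was -0.67. Both families encode cross-linked envelope proteins; the small proline-rich proteins are known for being induced in stressed epidermis, and group 1 genes are expressed in normal skin.

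Sprr2i was at 4.94, 3.06, 3.67 and 2.04 CPM in controls and at 24.9, 18.3, 10.3 and 11.2 CPM in knockouts (4.75-fold, adjusted p = 0.0032). Sprr2f rose 7.95-fold, Sprr1b 4.25-fold, Sprr2d 4.08-fold and Sprr2g 3.65-fold (adjusted p = 0.013 to 0.042), and none of their knockout libraries overlapped the controls. The Sprr2 genes are close copies of each other, so how reads were divided among them is uncertain. The family's summed level was 259 to 492 CPM in controls and 515 to 1570 CPM in knockouts. The count of 5 was 2 without control library 2 or 3 or knockout library 1 or 2, and 3 without control library 4 or with no filter on low counts, while DESeq2 called 8. Sprr2i and Sprr2f passed without any 1 library.

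Lce1a2 showed the largest fall of group 1, from 2033, 1855, 2777 and 2366 CPM in controls to 1003, 511, 796 and 823 CPM in knockouts (2.88-fold lower, adjusted p = 0.0064). Lce1b fell 1.82-fold, Lce1l 1.76-fold, Lce1f 1.73-fold, Lce1g 1.63-fold and Lce1c 1.61-fold (adjusted p = 0.0091 to 0.047), again without overlap. The summed level of the family was 14595 to 22478 CPM in controls and 8394 to 13474 CPM in knockouts. The count of 6 was 1 without control library 3, 2 without knockout library 2, and 3 without control library 4, without knockout library 1 or with upper-quartile scaling. Lce1a2 passed without any 1 library. The 6 tested genes of group 3, which is induced in damaged skin, all had positive values with a median of 0.93, but none passed.

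**Figure D2:**
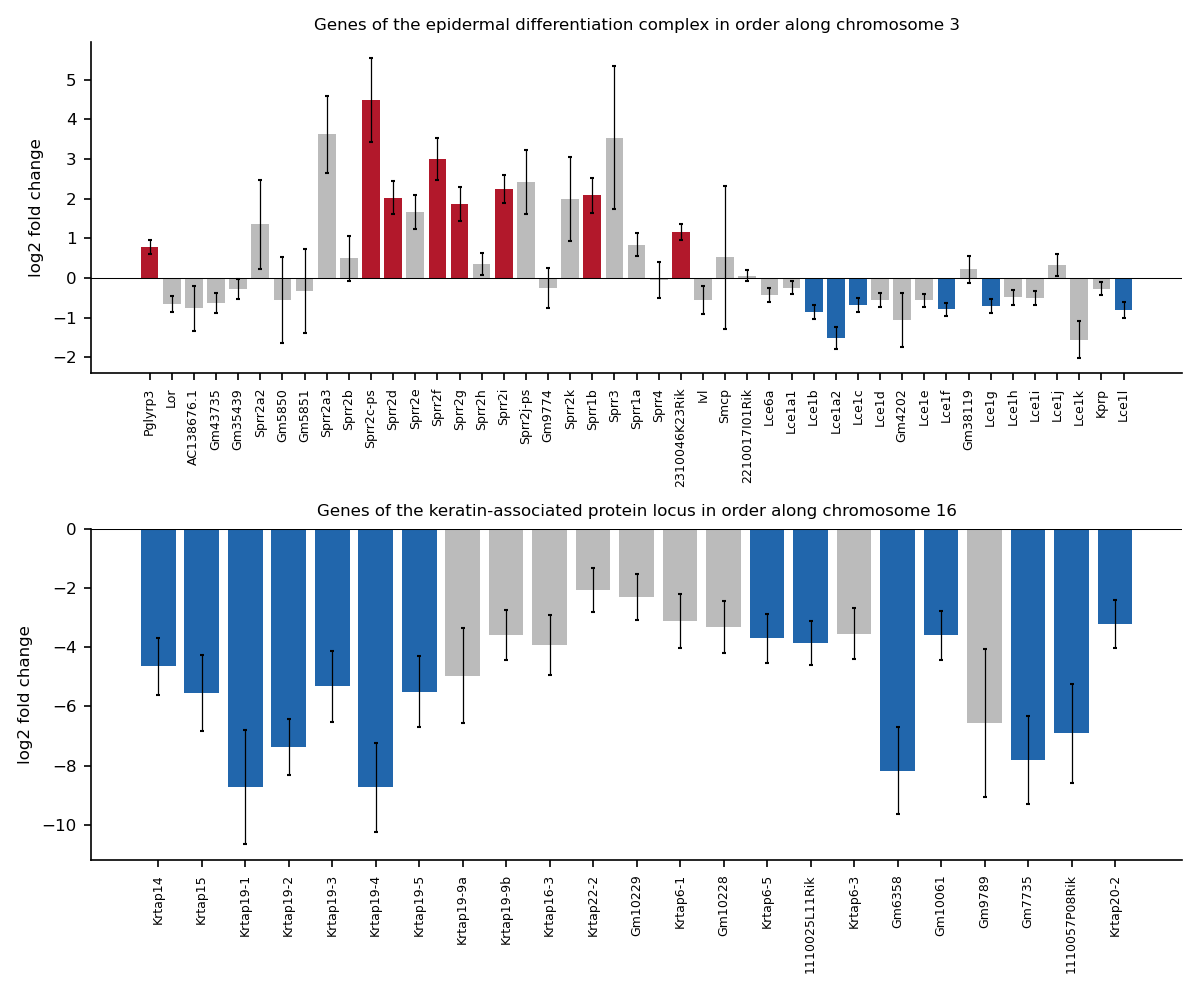
Bars give the log2 fold change (knockout over control) of every tested gene in 2 loci, in their order along the chromosome, with lines for the SE; red bars rose, blue bars fell and grey bars did not pass. In the upper panel 8 of 45 genes rose and 6 fell, the Sprr genes upward and the Lce1 genes downward. In the lower panel 14 of 23 genes fell. The ends of both loci were set at genes that passed.

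Few other markers of the epidermal layers passed the threshold. Of 19 basal keratinocyte genes 3 rose and none fell, against 0.964% of all genes that rose. Of these 19 genes 17 had positive values, with a median log2 fold change of 0.40. In 7 of them every knockout library was above every control, which was so for 4.64% of all tested genes. The list summed to 3077 to 4041 CPM in controls and 4196 to 8246 CPM in knockouts. Krt14 was at 1261, 828, 657 and 917 CPM in controls and 4272, 2748, 2101 and 1257 CPM in knockouts; control library 1 and knockout library 4 overlapped, and the rise of 2.83-fold had an adjusted p of 0.047, which was kept only without knockout library 4. Its partner Krt5 was at 612 ± 149 and 983 ± 302 CPM and did not pass (adjusted p = 0.14). Itga3 and Itgb4, integrin subunits that anchor basal cells, rose 1.64-fold and 1.47-fold (adjusted p = 0.013 and 0.018), and were lost in 1 and 4 of the 8 fits that left out 1 library. Of 15 spinous genes Dmkn, a secreted dermokine, fell 1.53-fold, from 10084 ± 789.5 to 6589 ± 1086 CPM (adjusted p = 0.040); it passed only without knockout library 3, and the call was lost with DESeq2 size factors, upper-quartile scaling or the 8 unexposed libraries alone. In the spinous list 4 of 15 genes had positive values, with a median log2 fold change of -0.13. Of 22 cornified envelope genes 1 rose, Cnfn (cornifelin), 1.6-fold (adjusted p = 0.013), though not without control library 4 or knockout library 1. In that list 3 of 22 genes had positive values, with a median of -0.27. In 6 of the 22 every knockout library was below every control (5.36% of all tested genes) and in 1 above (4.64%). Lor, encoding loricrin, was at 15137 ± 3607 and 9561 ± 2371 CPM and did not pass (adjusted p = 0.086), nor did Krt10 (adjusted p = 0.65). No gene of the 39 in the cell cycle list passed, though 36 had positive values with a median of 0.28; Mki67 was at 27.1 to 33.5 CPM in controls and 34.1 to 55.5 CPM in knockouts (adjusted p = 0.16).

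**Figure D3:**
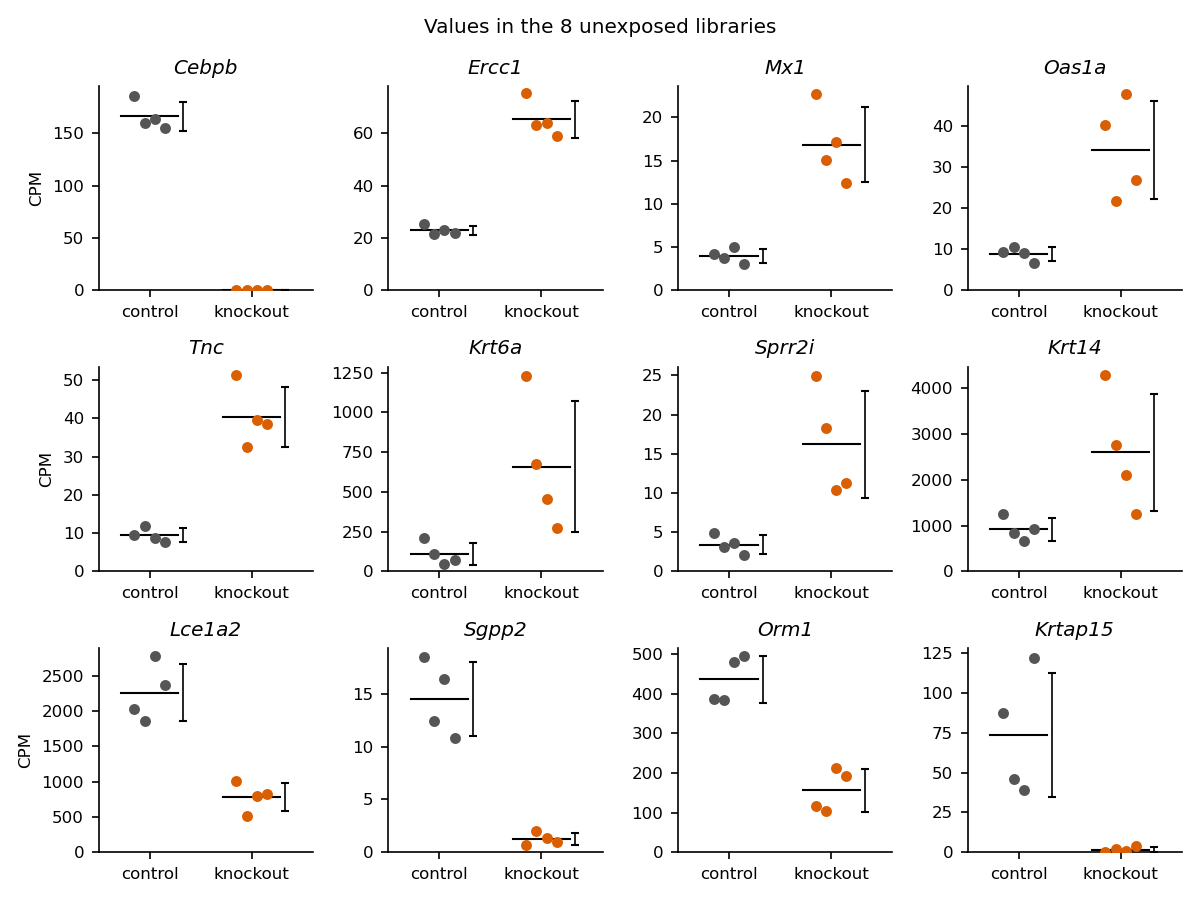
Each panel gives 1 gene's level (CPM, axis from 0) in the 4 control (grey) and 4 knockout (orange) unexposed libraries; lines are group means and bars the SD. Ercc1 and Tnc separate cleanly, Krt6a and Krt14 spread over a wide range in the knockouts, and Cebpb, Sgpp2 and Krtap15 are near 0 there.

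Genes of the hair shaft made up many of the largest falls. Keratin-associated proteins cross-link the keratins of the hair shaft, and although SKH-1 mice are hairless their skin keeps follicle remnants. Of 54 tested Krtap genes 9 fell and none rose, where 1.14% of all tested genes fell. Their median log2 fold change was -1.61, with 51 values below 0. All 9 lie on chromosome 16, where 24 were tested and their median was -3.57; the 22 tested on chromosome 11 had a median of -1.32 and none passed. The locus from Krtap14 to Krtap20-2, at chr16:88818667-89206394, held 23 tested genes, of which 14 fell. Of the 33 falls of at least 4-fold, 14 came from it. Its ends are the outermost Krtap genes that fell, so its share of calls depends on that choice. Krtap8-1 and Krtap13-1, among others on this chromosome, lie outside it and did not pass. Chromosome 16 had the highest share of calls, 5.81% against 3.26% or less on every other.

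Krtap15 was at 87.1, 45.6, 39.4 and 122 CPM in controls and at 0.147, 2.05, 0.603 and 3.75 CPM in knockouts, 46.9-fold lower with an adjusted p of 0.047. Krtap14, whose span overlaps that of Krtap15, fell 25.0-fold (adjusted p = 0.031) and Krtap6-5, from 33.4 to 95.7 CPM to 1.45 to 8.31 CPM, 12.9-fold (adjusted p = 0.042). Krtap19-2 was at 2.52 to 10.7 CPM in controls and between 0.00 and 0.125 CPM in knockouts, with the lowest adjusted p of the family (0.00031). Krtap19-4 had 617 counts in the 4 controls and 1 in the 4 knockouts, a ratio of 699.6 with a 95% counting interval of 125 to 27675. Krtap19-1 had 222 counts in controls and 0 in knockouts, at least 19.7-fold lower when each knockout library is set at a floor of 3 counts; interval and floor cover counting error only. Krtap19-3, Krtap19-5 and Krtap20-2 fell as well (39.9-fold, 45.1-fold and 9.32-fold). Without knockout library 4 the log2 fold change was -8.10 in place of -5.50 for Krtap19-5, -4.50 in place of -3.22 for Krtap20-2, -5.53 in place of -4.64 for Krtap14, -6.26 in place of -5.55 for Krtap15 and -8.30 in place of -7.36 for Krtap19-2. Krtap19-2 and Krtap19-4 passed without any 1 library, and Krtap15 and Krtap19-3 in none of those 8 fits. Family members are close copies, so the division of reads among them is uncertain. The control libraries differed among themselves, 1 and 4 being higher than 2 and 3 in each of Krtap14, Krtap15 and Krtap6-5. The count of 9 was 2 or 3 without any 1 library other than knockout library 4, and 11 without that one. It was 4 with no filter on low counts, and limma voom called 14 and DESeq2 17. Of 28 hair keratin genes Krt84 fell (4.01-fold, adjusted p = 0.0041) and 26 had negative values, with a median of -1.35.

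In the lipid lists below, the genes that passed fell, apart from the receptor S1pr3, and Sgpp2 had the smallest adjusted p. In the sphingosine phosphate list 1 of 13 genes had a positive value, with a median log2 fold change of -0.41. In the barrier lipid list 4 of 20 were positive, with a median of -0.23. Sgpp2, the phosphatase that removes the phosphate from sphingosine 1-phosphate, was at 18.4, 12.5, 16.4 and 10.8 CPM in controls and at 0.669, 2.02, 1.33 and 1.00 CPM in knockouts. It fell 11.5-fold (log2 -3.52 ± 0.37, adjusted p = 1.9e-05), and it passed without any 1 library. In the same list of 13 genes Plpp1, a lipid phosphate phosphatase, fell 2.18-fold and Sphk1, the kinase that makes sphingosine 1-phosphate, 1.5-fold, while the receptor S1pr3 rose 2.37-fold (adjusted p = 0.015 to 0.040). The Sphk1 call was lost with DESeq2 size factors, upper-quartile scaling or the 8 unexposed libraries alone. Of 20 barrier lipid genes Acer1, an alkaline ceramidase, fell 1.45-fold and Smpd1, acid sphingomyelinase, 1.52-fold (adjusted p = 0.018 and 0.020). Plpp1, Acer1 and Smpd1 were each lost in 4 of the 8 fits that left out 1 library, Sphk1 in 5 and S1pr3 in 3, and Smpd1 also with the 8 unexposed libraries alone. In the sterol and fatty acid list 25 of 26 genes had negative values, median -0.39, and 2 fell, among them Msmo1, a sterol oxidase, 1.54-fold (adjusted p = 0.043), which passed in none of those 8 fits and not with upper-quartile scaling.

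A list of 29 tested genes described as direct C/EBP targets in other tissues moved in both directions: 3 fell, 2 rose, and the median log2 fold change was -0.05. These calls are 17.2% of the list, against 2.10% of all tested genes. In 6 of the 29 every knockout library was below every control (5.36% of all tested genes) and in 3 above (4.64%). Orm1, an acute-phase protein driven by C/EBP factors in liver, was at 387, 385, 479 and 496 CPM in controls and 117, 104, 212 and 194 CPM in knockouts (2.79-fold lower, adjusted p = 0.00024). Trib1, a pseudokinase that directs C/EBP proteins to degradation, fell 1.78-fold (adjusted p = 0.0058), and Gadd45a, given above, was the third. The matrix metalloproteinase Mmp13 rose 6.21-fold, from 0.182 to 1.70 CPM to 3.62 to 5.81 CPM (adjusted p = 0.0058; log2 3.49 in place of 2.64 without control library 3), and Il24 rose.

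Further falls with small adjusted p came from abundant genes outside the lists. Serpina12, the serpin vaspin, was at 451, 468, 672 and 551 CPM in controls and 185, 172, 288 and 266 CPM in knockouts (2.35-fold lower, adjusted p = 0.00046). Glrx, glutaredoxin, was at 346 to 421 CPM and at 149 to 225 CPM (2.23-fold lower), Cpe, carboxypeptidase E, at 183 to 240.1 and 114 to 128 CPM (1.80-fold), Pepd, a dipeptidase that frees proline, at 142 to 166 and 75.5 to 95.1 CPM (1.83-fold) and Hist1h1c, a linker histone, at 120.4 to 144 and 63.4 to 86.5 CPM (1.77-fold), with adjusted p of 0.00031 to 0.00048. None of these ranges overlapped. At lower levels Ccdc136 fell 6.51-fold, the homeobox gene Sebox 4.64-fold and Tmem229a 12.0-fold (adjusted p = 7.6e-05, 0.00046 and 0.0037). These calls held without any 1 of the 8 unexposed libraries. Windows before the start of the 3 best-supported fallen genes that carry the C/EBP element, Serpina12, Pon3 (a lactonase, 2.37-fold lower, adjusted p = 0.0011) and Gadd45a, are shown in the same way; capitals mark TTGCNNAA.

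Serpina12, chr12:104044444-104044693, minus strand, 1 match 90 bases before the start:
Serpina12: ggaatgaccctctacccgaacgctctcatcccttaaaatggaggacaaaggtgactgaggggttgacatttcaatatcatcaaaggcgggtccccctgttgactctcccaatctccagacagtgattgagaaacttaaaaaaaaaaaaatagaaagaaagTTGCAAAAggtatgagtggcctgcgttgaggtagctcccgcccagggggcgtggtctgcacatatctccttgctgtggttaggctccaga
Pon3, chr6:5256234-5256483, minus strand, 1 match 15 bases before the start:
Pon3: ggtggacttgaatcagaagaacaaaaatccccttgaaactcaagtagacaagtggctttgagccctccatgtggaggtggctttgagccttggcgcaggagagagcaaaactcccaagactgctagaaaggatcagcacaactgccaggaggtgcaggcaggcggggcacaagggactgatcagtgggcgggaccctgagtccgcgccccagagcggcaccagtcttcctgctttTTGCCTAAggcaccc
Gadd45a, chr6:67037408-67037657, minus strand, 1 match 95 bases before the start:
Gadd45a: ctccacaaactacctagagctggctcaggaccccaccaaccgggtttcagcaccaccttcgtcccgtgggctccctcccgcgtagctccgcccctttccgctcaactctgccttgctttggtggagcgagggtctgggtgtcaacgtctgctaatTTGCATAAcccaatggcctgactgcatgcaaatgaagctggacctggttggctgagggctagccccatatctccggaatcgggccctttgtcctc

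The letters of 3 motifs were counted in the 300-base RefSeq windows, from 250 bases before to 50 after the start, of the 12379 tested genes found there, 116 of the 171 risen and 154 of the 202 fallen. On either strand, GAAANNGAAA was in 3.03% of all windows, 17.2% of the risen and 3.25% of the fallen. It was in 12 of 20 windows (60.0%) of risen interferon-stimulated genes, in 49.2% of the 65 windows of all tested genes in those lists, and in 8.33% of the 96 windows of the other risen genes. TGANTCA, the AP-1 element, was in 5.79% of all windows, 13.8% of the risen and 8.44% of the fallen. TTGCNNAA, a core C/EBP element, was in 8.89% of all windows, 8.62% of the risen and 11% of the fallen. A match describes the letters alone; the motifs can overlap, and no test was made of these shares.

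The largest rises outside these groups came from genes at low levels in control epidermis. Muc16, a membrane mucin of moist epithelia, was at 0.197, 0.0235, 0.00 and 0.437 CPM in controls and at 5.04, 5.03, 2.15 and 3.16 CPM in knockouts (21.9-fold, adjusted p = 0.016); without control library 4 its log2 fold change was 5.57 in place of 4.45. Pyy, a gut peptide hormone, was at 1.40 to 3.47 CPM in controls and at 76.8, 37.4, 16.5 and 6.75 CPM in knockouts (16-fold, adjusted p = 0.029), and the call was lost without any 1 of control libraries 1 to 4 or knockout libraries 1 and 2; without knockout library 1 its log2 fold change was 3.24 in place of 4.00. Cd59b, a complement inhibitor, rose 13.5-fold and Hist1h2al, annotated as a processed pseudogene of the histone H2A family, 10.2-fold, from 0.243 to 1.04 CPM to 4.87 to 8.55 CPM (adjusted p = 0.015 and 0.00013). Cd59b did not pass without control library 1 or 3. Jakmip2 rose 6.56-fold and did not pass without control library 3 or 4 or knockout library 1, where its log2 fold change was 1.95 in place of 2.71. Has3, a hyaluronan synthase, rose 5.64-fold (adjusted p = 0.0021).

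Among rises from moderate levels, Kcnc4, a voltage-gated potassium channel subunit, was at 7.85, 4.69, 5.55 and 4.06 CPM in controls and 21.3, 16.9, 14.5 and 18.7 CPM in knockouts (3.23-fold, adjusted p = 1.9e-05). Sdc3, the heparan sulphate proteoglycan syndecan 3, was at 6.69 to 12.4 CPM and 27.4 to 30.6 CPM (3.24-fold, adjusted p = 0.00016). Both groups of values were well apart in each gene. Duox1, a peroxide-producing oxidase, and Duoxa1, its maturation factor and neighbour, rose 2.71-fold and 2.73-fold (adjusted p = 0.018 and 0.0052), Duox1 not in 4 of the 8 fits that left out 1 library; they were picked out after their values were seen. Of 15 tested antimicrobial genes Pglyrp3, a peptidoglycan recognition protein, rose 1.72-fold, and the chitinase-like Chil1 and S100a7a fell 1.74-fold and 3.22-fold (adjusted p = 0.024, 0.047 and 0.045). Pglyrp3 was lost in 5 of those 8 fits and Chil1 and S100a7a in 7. Chil1 was lost also with DESeq2 size factors, upper-quartile scaling, no filter or removal of mitochondrial transcripts, and S100a7a with no filter, limma voom or the 8 unexposed libraries alone. Of 11 metallothionein and zinc genes Mt2 rose 2.11-fold and the zinc exporter Slc30a1 fell 1.43-fold (adjusted p = 0.039 and 0.040), lost in 6 and 7 of the 8 fits; with no filter neither passed, and Slc30a1 also not with upper-quartile scaling or the 8 unexposed libraries alone. Bcl3, an atypical IκB protein, was the 1 of 16 NF-kB genes that rose (1.71-fold, adjusted p = 0.035), and it was lost in 6 of the 8 fits and with limma voom. The lists of prostaglandin, retinoid, Wnt, Notch, clock, NRF2, unfolded protein and heat shock genes held no call with edgeR on all 16 libraries; the smallest adjusted p in each belonged to Slco2a1, Aldh1a3, Dkk3, Maml1, Tef, Pgd, Chac1 and Hspb1, between 0.058 and 0.25. DESeq2 called 1 prostaglandin gene (Slco2a1), 3 retinoid genes (Aldh1a3 and Lrat among them), 1 Wnt gene (Dkk3) and 2 NRF2 genes (Pgd and Gstm1). The 8 unexposed libraries alone gave 2 prostaglandin genes (Hpgd and Slco2a1), and a filter at a mean of at least 1 CPM called Aldh1a3. Leaving out 1 library called Aldh1a3, Hpgds or Hspb1, among others, in at least 1 fit.

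**Figure D4:**
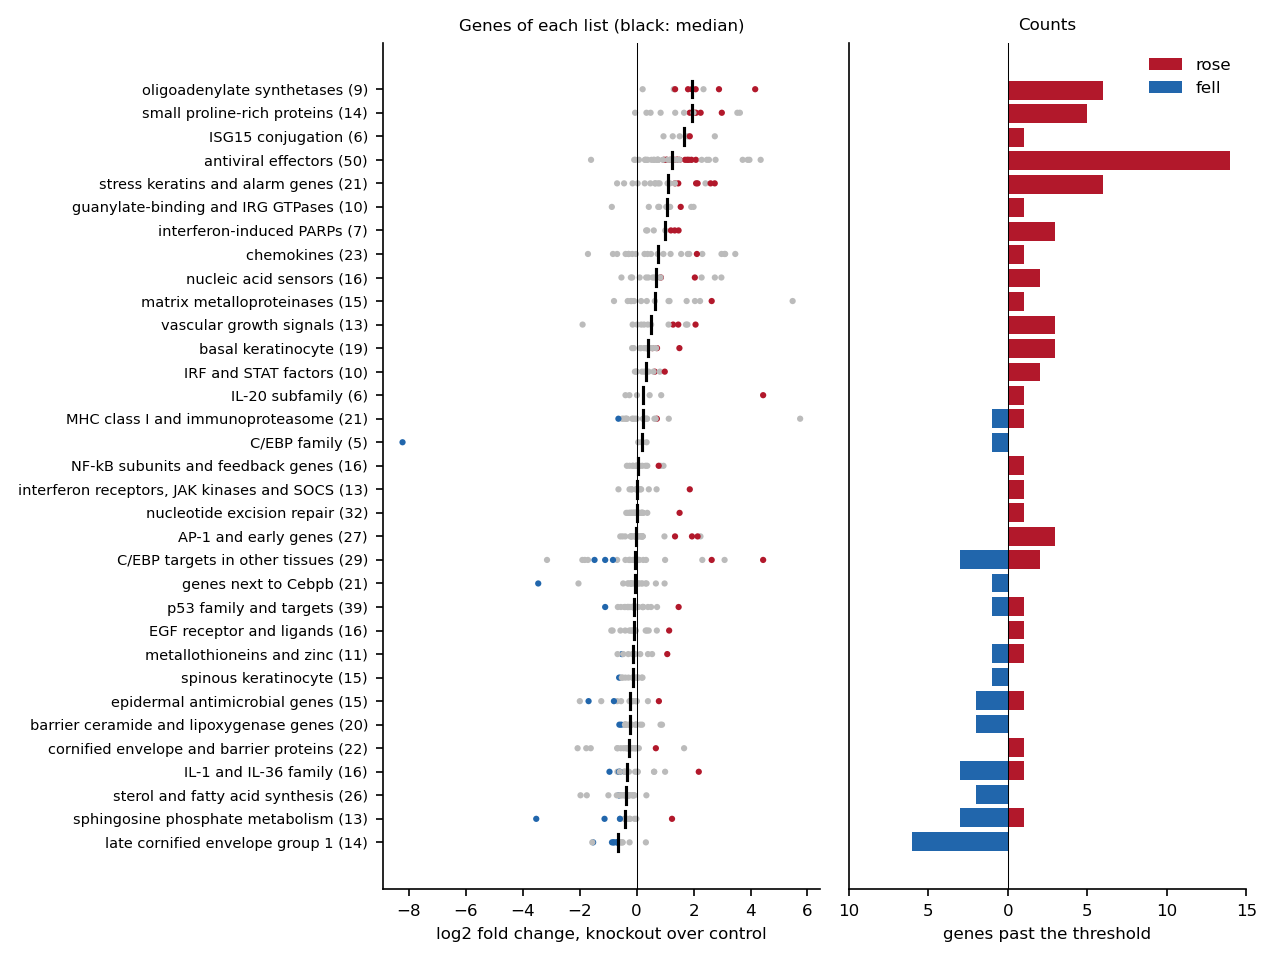
Left, the log2 fold change of each tested gene in the pathway lists with at least 1 call, with the median in black and the number tested in brackets; right, the number of genes that rose (red) and fell (blue). The oligoadenylate synthetases and small proline-rich genes have the highest medians (1.94 and 1.93) and the late cornified envelope group 1 the lowest (-0.67).

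Bulk values cannot tell fewer cells of a type from less RNA per cell, and markers of cells other than keratinocytes were followed beside these results. Keratinocyte markers dominated every library, with Krt10 at 6487 to 16482 CPM. Of 16 Langerhans cell genes 3 rose, Mfge8 2.11-fold, Csf1r 1.95-fold and Cd86 1.72-fold (adjusted p = 0.0092 to 0.046). Mfge8 did not pass without control library 4, Csf1r was lost in 5 of the 8 fits that left out 1 library, and Cd86 in all 8 and with no filter. The list summed to 857 to 1061 CPM in controls and 937 to 1314 CPM in knockouts; the defining marker Cd207 was at 7.32 to 21.1 and 11.2 to 26.0 CPM. Of 19 T cell genes 18 had negative values, median -0.63, and Trbc1, a T cell receptor constant region, fell 2.24-fold (adjusted p = 0.043), a call lost in all 8 of those fits and with DESeq2 size factors or upper-quartile scaling; their sum was 164 to 189 CPM in controls and 87.9 to 150.1 CPM in knockouts. In the fibroblast and matrix list of 14, Postn (periostin) rose 3.86-fold, from 42.4 to 80.5 CPM to 103 to 349 CPM (adjusted p = 0.0057). That list summed to 90.1 to 126 and 157 to 431 CPM, and Col1a1 was at 0.218 to 0.614 and 1.00 to 2.65 CPM. Of 6 tested neutrophil genes Cxcr2 rose 2.11-fold (adjusted p = 0.021) and Trem1, with 0 counts in controls and 37 in knockouts, also passed. Only these 2 of the 6 had positive values, and the median log2 fold change was -0.12. Ly6g was at 0 in all 8 libraries, and the list summed to 67.6 to 230.3 and 91.1 to 189.9 CPM. Trem1 passed only without knockout library 2 or 4, and Cxcr2 not in 4 of the 8 fits. Of 13 monocyte and macrophage genes Csf1r rose, with sums of 26.9 to 41.4 and 42.0 to 59.3 CPM, and Adgre1 was at 2.24 to 4.45 and 3.41 to 4.53 CPM. Of 18 sebaceous genes Dgat2, which makes triglyceride, fell 1.51-fold (adjusted p = 0.019), though not in 4 of the 8 fits. In that list 4 of 18 genes had positive values, with a median log2 fold change of -0.91. In 7 of the 18 every knockout library was below every control (5.36% of all tested genes) and in 1 above (4.64%). The list summed to 2513 to 3171 CPM in controls and 2425 to 2813 CPM in knockouts. Melanocyte, mast cell, muscle, adipocyte, erythroid and Schwann cell lists held no call with edgeR on all 16 libraries. The fit of the 8 unexposed libraries alone called 1 melanocyte gene (Mitf) and 1 adipocyte gene (Fabp4) lower, and leaving out control library 1 called 1 mast cell gene (Hdc) higher. Adipoq was at 0 throughout, and the melanocyte sum was 42.2 to 82.8 CPM in controls and 24.5 to 39.9 CPM in knockouts. Of 9 tested melanocyte genes 1 had a positive value, with a median log2 fold change of -0.83. The part of these cells in the keratinocyte results was not tested.

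The same deletion could be looked at in the 8 libraries taken after UVB. These entered the same fit, so the second look is not independent of the first: they enter neither mean of the unexposed contrast, but they helped set the filter, scaling and spread behind its calls. Of the 171 risen genes 151 (88.3%) were also higher in exposed knockouts than in exposed controls, and of the 202 fallen 198 (98.0%) were lower; among genes not called, 64.2% had the same sign in both. Of the risen genes 96 (56.1%) rose again, where 2.36% of all genes rose in exposed epidermis, and 123 of the fallen (60.9%) fell again, where 2.32% of all genes fell. They are 23% of the 418 rises and 29.9% of the 412 falls after UVB. Tnc (log2 2.01), Ercc1 (1.58), Mx1 (2.18), Sgpp2 (-4.04), Orm1 (-1.52) and Sdc3 (1.69) passed after UVB as well, each with an adjusted p of 0.00033 or less. Of the interferon-stimulated genes 49 of 82 rose after UVB, with a median log2 fold change of 1.99.

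The small proline-rich genes and several of the stress genes gave other values after UVB. None of the 14 small proline-rich genes rose after UVB, where their median was -0.08; Sprr2i had a log2 fold change of -0.13 and Sprr2f of -0.12. Krt6a was at 0.40 and Krt16 at 0.43 on that scale, Hbegf at -0.22, Fosl1 at -0.34, Inhba at -0.06 and Atf3 at -0.05, none past the threshold. In the stress list 3 of 21 genes rose after UVB and 2 fell. Tnc and Vegfa rose there again (log2 2.01 and 1.12, adjusted p = 1.8e-05 and 0.011). Osmr, the oncostatin M receptor, picked out after its values were seen, was the 1 gene that rose without UVB (log2 0.62, adjusted p = 0.027, lost in 6 of the 8 fits that left out 1 library) and fell after it (-0.60, adjusted p = 0.019). The test of the difference between both contrasts called no gene with edgeR at an adjusted p under 0.05; its lowest adjusted p was 0.11, for Osmr, and 1043 genes, 77 of them among the 373, had an unadjusted p under 0.05. The 4 lowest among the genes named here were Osmr, Sprr2i (unadjusted p = 0.00013), Fosl1 (0.00042) and Hbegf (0.00054). Of the late cornified envelope genes of group 1, 7 of 14 fell after UVB, with a median of -0.67. On chromosome 16, Krtap19-2, Krtap19-4, Krtap14, Krtap6-5 and Krtap20-2 fell after UVB too (adjusted p = 0.00042 to 0.037), and Krtap15, Krtap19-1, Krtap19-3 and Krtap19-5 did not pass there (log2 -3.87, -3.42, -4.19 and -3.97).

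**Figure D5:**
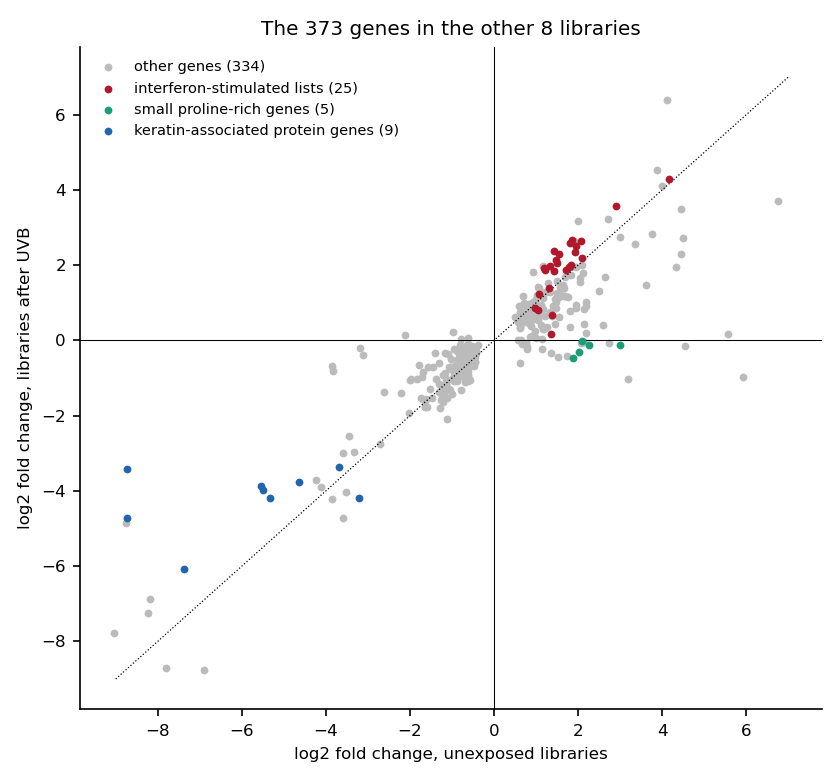
Each point is 1 of the 373 called genes, with its log2 fold change (knockout over control) in the 8 unexposed libraries and in the 8 libraries taken 6 hours after UVB; the dotted line marks equal values. Interferon-stimulated genes (red, 25) are mostly near or above the line, small proline-rich genes (green, 5) near 0 after UVB, and Krtap genes (blue, 9) below 0 in both.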

How the data were processed

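Per the labels' protocols, RNA from heat-separated epidermis was made into directional cDNA libraries, and the submitters' processing notes name FastQC, STAR, HTSeq and DESeq2 without versions; the sources used here do not give genome build, annotation or strand setting. The authors deposited raw gene counts, a table of 49585 genes by 16 libraries. Even numbers made up 68.8% of the counts from 2 to 101, so intervals from counts are too narrow. Coordinates are from GENCODE M21 (GRCm38), matched by gene ID. edgeR 4.0.16 (R 4.3.3) was fitted to all 16 libraries with filterByExpr, TMM scaling, 1 mean per group and a robust quasi-likelihood F test (two-sided, Benjamini-Hochberg over 17741 genes). The fit was tested on simulated data. Replicate numbers follow accession order and pair nothing. Members and lists were chosen with earlier results of these data known. Genes were named by rule: Cebpb and its neighbours, the 12 largest rises and 12 largest falls at 1 CPM or more without overlap, the 12 next smallest p-values, and up to 6 called members of each of 62 lists. A few genes that the rule names are not reported here. Alternatives were DESeq2 1.42.0, limma 3.58.1 voom, 2 other scalings, 2 filters, the 8 unexposed libraries alone, removal of mitochondrial transcripts with Gm42418, and leaving out each of the 8 libraries.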

Additional observations from a re-analysis of the deposited data

Results flagged for a closer look

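Among 272 groups of 4 libraries examined for the genes named here, 19 held 1 library whose gap to the nearest other was too large a share of the group's range by Dixon's test at 95%, where chance flags about 1 in 20 groups. Values are in CPM. In control library 1, Krt16 was at 670 (median of the others 204), Sprr2d at 48.3 (19.0) and Hdc at 0.329 (0). In control library 2, Cgas was at 15.3 (13). In control library 3, Slfn9 was at 2.52 (4.76) and Tnnt3 at 0.303 (0.0219). In control library 4, Oasl2 was at 2.35 (8.08) and Il24 at 0.0910 (0). Knockout library 1 stood above the other knockouts in Jakmip2 at 17.7 (4.36), Nr4a1 at 6.12 (2.42), Glrx at 225 (159.5) and Hdc at 1.08 (0.344). In knockout library 2, Krtap19-4 was at 0.0177 and Tnnt3 at 0.0708, with 0 in the others. In knockout library 3, Acer1 was at 236 (207), Hspb1 at 396 (261) and Sebox at 3.50 (1.93). In knockout library 4, Krtap19-5 was at 1.00 (0) and Ak1 at 7.56 (10.3).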

How the results depend on the processing

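The log2 fold change of Cebpb lay between -8.42 and -7.89 when 1 library was left out and passed under every alternative run. No gene called in the main analysis turned its direction under any of them. The 373 calls became 134 to 435 when 1 library was left out, the rises 67 to 206 and the falls 63 to 229. The interferon-stimulated rises became 9 to 23, the small proline-rich rises 2 to 5, the stress rises 2 to 8, the late cornified envelope falls 1 to 6 and the Krtap falls 2 to 11. These fits have fewer libraries. DESeq2 called 795 genes (420 rises, 375 falls), 39 interferon-stimulated, 8 small proline-rich and 17 Krtap genes. The 8 unexposed libraries alone gave 294 rises, 42 interferon-stimulated and 3 stress genes. With no filter on low counts 3 small proline-rich and 4 Krtap genes passed, voom called 14 Krtap genes, and upper-quartile scaling 3 late cornified envelope genes; the cause was not tested. Of the calls 53.8% were rises with DESeq2 size factors and 57.0% with upper-quartile scaling, and no scaling moved the median of all genes by more than 0.037 (log2). No paired analysis was possible because the replicate numbers follow accession order and the labels pair no libraries. Genes under a few counts per library could not be compared at this depth.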
